A study of Mus musculus with 6 samples.

Results

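The genes described here are Pam, which encodes the amidating enzyme PAM, Uhmk1, which encodes a protein kinase, and 8 genes for their interactors and substrates: Rassf9, Kalrn, Trio, Stmn1, Sf1, Cdkn1b, U2af2 and Sf3b1. They were taken by name, with every probe that the platform annotation assigns to them, which gave 26 probes out of 45281 and 10 genes out of the 19057 named there. Transcripts were measured with Illumina MouseWG-6 v2.0 expression BeadChips in AtT-20 cells, a mouse line of corticotrope tumour cells from the pituitary. A stably transfected rat PAM-1 that doxycycline switches on was present in every culture of both groups. The clones were named 14, 6_1 and 6_2. Cultures of each spent 48 h with doxycycline or in control medium, and 1 array was made from each culture, which gave 3 doxycycline arrays and 3 control arrays. The doxycycline dose is 4 µg/ml in the treatment protocol and 4 mg/ml in the sample descriptions, and neither is given as a correction of the other. The labels do not say whether clones 6_1 and 6_2 arose separately. No cells without the transgene were analysed here, so the drug and the induced enzyme cannot be told apart.

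PAM finishes many peptide hormones and neuropeptides in the secretory granule. It turns a precursor that ends in glycine into a peptide with an amide at its end, in steps carried out by a copper-dependent monooxygenase domain and a lyase domain. Membrane-bound forms of PAM, such as PAM-1, have a short tail in the cytosol that governs their routing and binds other proteins. Rassf9, Uhmk1 and kalirin, the product of Kalrn, were found as such partners of the tail; Rassf9 is also listed as Pamci and Uhmk1 as P-CIP2 and KIS in the reference annotation. Uhmk1 is a serine/threonine kinase with a U2AF homology motif, a fold by which splicing proteins bind each other. Its known substrates include stathmin (Stmn1), splicing factor Sf1 and the cyclin-dependent kinase inhibitor p27 (Cdkn1b), which it marks for export from the nucleus.

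Measured transcripts of these 10 genes fell into 3 classes. Pam, Trio, Stmn1, Sf1, Cdkn1b and U2af2 had at least 1 probe above background on all 6 arrays. Uhmk1 lay at the limit of detection, with no probe above background on all 6 arrays. Rassf9, Kalrn and Sf3b1 had no probe above background on any array, with 1 probe each for Rassf9 and Sf3b1. A probe counted as above background at a detection p, its rank against the array's negative controls, under 0.01. Of the 26 probes 10 met this on all 6 arrays, 3 on some arrays and 13 on none. A probe was tested when it did so on at least 3 arrays, which held for 12 probes of 7 genes. Levels are given as normalised log2 intensity, on which the lowest value above background was 5.97 to 6.22 per array. Levels of different probes are not comparable, since each binds its own target with its own strength.

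**Figure D1:**
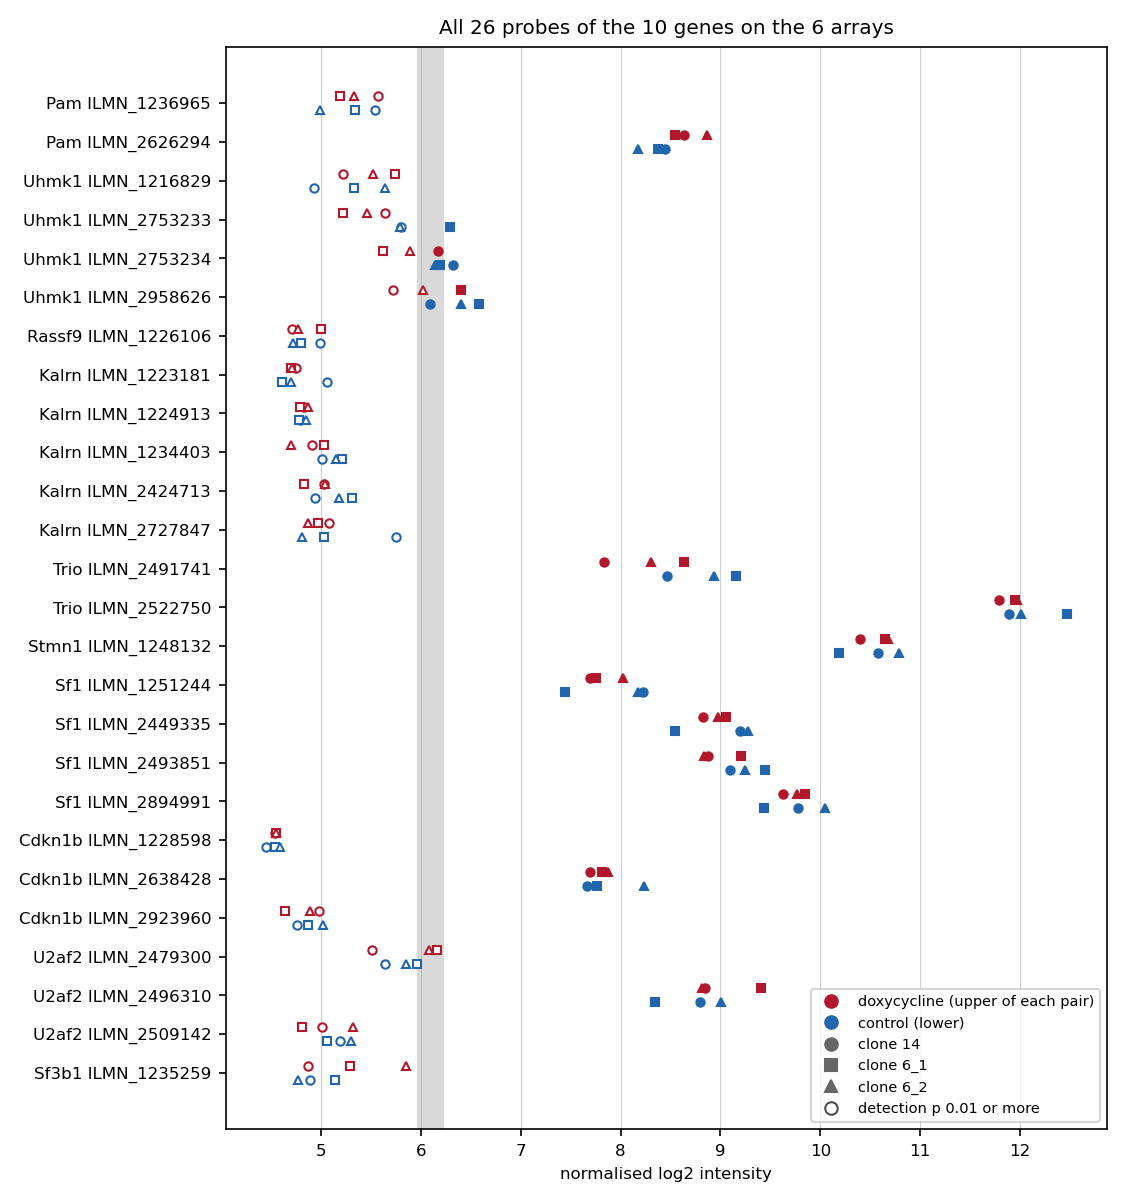
Normalised log2 intensity of all 26 probes on the 6 arrays, with doxycycline (red) above control (blue) on each line and a symbol per clone. Open symbols have a detection p of 0.01 or more, and the grey band spans the lowest values above background of the 6 arrays, 5.97 to 6.22. All 6 values of Rassf9, Sf3b1 and the 5 Kalrn probes lie to the left of the band.

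None of the 12 tested probes passed the comparison of doxycycline with control medium (limma with clone as a block, Benjamini-Hochberg over all tested probes). Their adjusted p ran from 0.115 to 0.993. Among all 16902 tested probes 53 passed, or 0.314%, at changes of 1.05 or more on the log2 scale, while the largest difference among the 12 was 0.60 in size. At an unadjusted p under 0.05 lay 1 of the 12, against 22.3% of all tested probes. Doxycycline values were higher for 3 of the 12 probes and lower for 9, with a median difference of -0.11, beside a median of -0.01 and 48.3% higher over all tested probes. The 3 clones agreed in sign on 6 of the 12 probes. Of these the 2 Uhmk1 probes, both lower, reached the 3 arrays needed for testing through their control arrays, which favours that direction. These p-values measure the spread between single cultures of 3 clones. In RNA from a whole culture, fewer cells with a transcript and less of it per cell cannot be told apart.

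One array differed from the rest, that of clone 6_1 in control medium. On the first principal component, with 56.2% of the variance, it lay at 56.5, against -33.7 to -8.51 for the doxycycline arrays and 18.7 and -11.2 for the other control arrays. It held the lowest or the highest of the 6 values for 9 of the 12 member probes, and for 62.1% of all tested probes. Each doxycycline array also had fewer probes above background than the control array of its clone, 35.8% to 36.4% against 37.2% to 37.9%. Markers of the corticotrope lineage were present, with Pomc, Tbx19, Neurod1, Crhr1 and Neurod4 above background on all 6 arrays, Pcsk1 on 5, and Pitx1 and Avpr1b on none. Hormones of other pituitary cells were above background on none, except Cga on 1 array, and the 6 fibroblast markers and the 3 leukocyte markers with a probe were above background on none. Of the vascular markers Kdr was above background on all 6 arrays and Pecam1 and Cdh5 on none.

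Pam probe ILMN_2626294, annotated to the mouse gene, gave 8.63, 8.54 and 8.86 in doxycycline medium for clones 14, 6_1 and 6_2. In control medium it gave 8.45, 8.37 and 8.17. Whether these values include signal from the rat transgene was not tested. The lowest doxycycline value lay above the highest control value, so the groups did not overlap. Among the 12 tested probes this held for Pam alone, and it held for 24.5% of all tested probes. The means were 8.68 ± 0.17 with doxycycline and 8.33 ± 0.14 in control medium (SD, n = 3 arrays each). The difference of 0.35 (95% interval -0.06 to 0.76) did not pass (limma, adjusted p = 0.285). Clone 14 differed by 0.18, clone 6_1 by 0.17 and clone 6_2 by 0.69. Clone 6_2 thus held both the lowest control value and the highest doxycycline value, and without it the mean difference was 0.18.

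The other Pam probe, ILMN_1236965, is annotated to a cDNA record, AK049423, and not to a RefSeq transcript. Its detection p ran from 0.0449 to 0.255, and it was above background on 0 of 6 arrays. Its log2 values of 4.99 to 5.58 are those of background. Probe sequences were not used here, so whether either probe also binds the rat transgene was not tested. Neither probe therefore checks the induction of rat PAM-1.

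Uhmk1 had 4 probes, 3 of them annotated to the RefSeq transcript NM_010633 and 1 to the cDNA record AK050559. Probe ILMN_2753234 gave 6.17, 5.62 and 5.89 with doxycycline in clones 14, 6_1 and 6_2, against 6.32, 6.19 and 6.14 in control medium. Its detection p was 0.00962, 0.0449 and 0.0171 with doxycycline, against 0.00214, 0.00748 and 0.00855 in control medium. It was thus above background on 1 doxycycline array and on 3 control arrays. Probe ILMN_2958626 gave 5.72, 6.41 and 6.02 with doxycycline, against 6.10, 6.58 and 6.40 in control medium. It too was above background on 1 doxycycline array, that of clone 6_1, and on 3 control arrays.

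Both probes read lower with doxycycline in each of the 3 clones, yet the groups overlapped on both. Each reached the 3 arrays needed for testing through the control arrays, a rule that favours probes higher in control medium. No conclusion is therefore drawn from the shared sign. The difference was -0.32 (95% interval -0.72 to 0.07) on ILMN_2753234 and -0.31 (-0.69 to 0.07) on ILMN_2958626, and neither passed (limma, adjusted p = 0.296 and 0.294). On ILMN_2753234 clone 14 differed by -0.15, clone 6_1 by -0.57 and clone 6_2 by -0.25. On ILMN_2958626 clone 14 differed by -0.37, clone 6_1 by -0.17 and clone 6_2 by -0.39. The clone with the largest difference on one probe therefore had the smallest on the other. With no background correction the differences were -0.13 on each probe, so their size depends on that step at these low signals.

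Order of the clones also differed between the Uhmk1 probes. On ILMN_2753234 clone 14 was highest in both media, whereas on ILMN_2958626 it was lowest in both. Of the untested probes, ILMN_2753233 had a detection p of 0.0459, 0.125 and 0.0588 with doxycycline, against 0.0214, 0.00641 and 0.0182 in control medium. Its 3 doxycycline values, 5.64, 5.22 and 5.46, lay below its 3 control values, 5.81, 6.30 and 5.79, but only the control array of clone 6_1 was above background. The cDNA probe ILMN_1216829 gave 5.22, 5.75 and 5.52 with doxycycline, against 4.93, 5.33 and 5.64 in control medium, and was above background on no array. Its values were higher with doxycycline in 2 of the 3 clones, unlike those of the other 3 probes.

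Rassf9, a member of the Ras association domain family that binds the PAM tail, was represented by ILMN_1226106 alone. Its detection p was 0.683, 0.254 and 0.561 with doxycycline in clones 14, 6_1 and 6_2, against 0.245, 0.464 and 0.654 in control medium. The log2 values of the media overlapped, and none of the 6 reached the lowest value above background. A Rassf9 transcript was thus not detectable with this probe.

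Kalrn and Trio encode related guanine nucleotide exchange factors with spectrin repeats, which activate small GTPases such as Rac1. On these arrays their signals differed in kind: 5 of 5 Kalrn probes were above background on no array, and 2 of 2 Trio probes on all 6. The lowest detection p of Kalrn was 0.0235, for ILMN_2727847 on the control array of clone 14, where it gave 5.75 against 4.81 to 5.08 on the other 5 arrays. For the other Kalrn probes the lowest detection p was 0.0876 for ILMN_2424713, 0.115 for ILMN_1234403, 0.182 for ILMN_1223181 and 0.376 for ILMN_1224913. Of the 5 probes 4 are annotated to the RefSeq transcript NM_001164268, so isoforms that lack their target would not be seen.

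Trio showed the largest difference between the media among the 12 tested probes. On ILMN_2491741 it gave 7.83, 8.64 and 8.30 with doxycycline in clones 14, 6_1 and 6_2, against 8.47, 9.15 and 8.94 in control medium. The groups overlapped, because the doxycycline value of clone 6_1 lay above the control value of clone 14, yet each clone was lower with doxycycline by a like amount. Clone 14 differed by -0.64, clone 6_1 by -0.52 and clone 6_2 by -0.63. The mean of -0.60 (95% interval -0.97 to -0.22) is 0.662-fold on the linear scale. It had the lowest p of the 12 probes but did not pass over all probes (limma, unadjusted p = 0.00557, adjusted p = 0.115). Over 13 other settings the difference stayed between -0.70 and -0.46 and the adjusted p between 0.0737 and 0.429. Changes of the block, the filter or the moderation cannot alter the difference. The value of -0.46 came with no background correction and that of -0.70 with median scaling.

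The second Trio probe, ILMN_2522750, gave 11.79, 11.95 and 11.97 with doxycycline, against 11.89, 12.47 and 12.01 in control medium. Its difference of -0.22 (95% interval -0.62 to 0.18) did not pass (limma, adjusted p = 0.475). It came mostly from clone 6_1, with -0.52, against -0.10 in clone 14 and -0.04 in clone 6_2. Without clone 6_1 the mean was -0.07 on this probe and -0.63 on ILMN_2491741. The 2 probes therefore gave like values in clone 6_1 and unlike values in the other clones. The annotation gives the RefSeq transcript NM_001081302 for ILMN_2491741 and no transcript for ILMN_2522750.

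**Figure D2:**
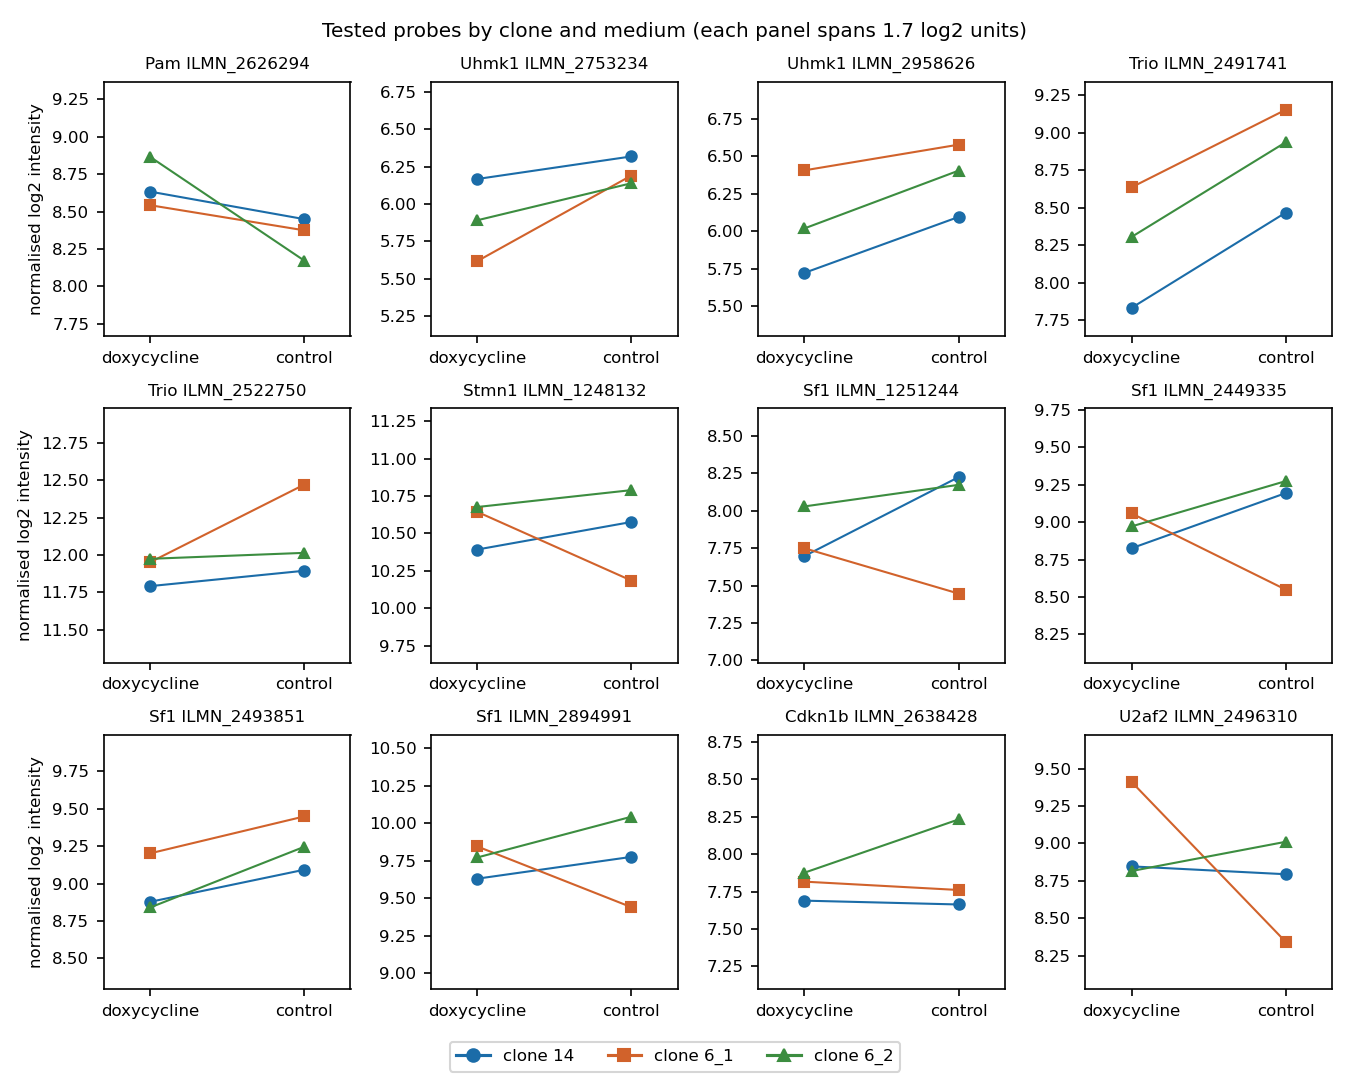
Normalised log2 intensity of the 12 tested probes in doxycycline medium (left of each panel) and control medium (right), with a line per clone. Lines run the same way in all 3 clones for Pam, both Uhmk1 probes, both Trio probes and Sf1 ILMN_2493851, and clone 6_1 runs against both other clones for Stmn1 and the other 3 Sf1 probes.

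Stmn1, the gene for stathmin, a protein that sequesters tubulin and is a Uhmk1 substrate, was measured by ILMN_1248132. It gave 10.39, 10.64 and 10.68 with doxycycline in clones 14, 6_1 and 6_2, against 10.58, 10.19 and 10.79 in control medium. The control array of clone 6_1 was the lowest of the 6 and the other 2 clones read lower with doxycycline. The mean difference of 0.05 (95% interval -0.37 to 0.48) did not pass (limma, adjusted p = 0.885). Without clone 6_1 it was -0.15.

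Sf1, the branch point binding protein and a Uhmk1 substrate, had 4 probes, all above background on all 6 arrays. On ILMN_2449335 it gave 8.83, 9.06 and 8.97 with doxycycline, against 9.19, 8.55 and 9.27 in control medium. ILMN_2894991 gave 9.63, 9.84 and 9.77 with doxycycline, against 9.78, 9.44 and 10.04 in control medium. ILMN_1251244, annotated to the cDNA record BC009091, gave 7.70, 7.75 and 8.03 with doxycycline, against 8.22, 7.45 and 8.17 in control medium. On these 3 probes the control array of clone 6_1 was the lowest of the 6. The fourth probe, ILMN_2493851, gave 8.88, 9.20 and 8.84 with doxycycline, against 9.09, 9.45 and 9.25 in control medium. Here the control array of clone 6_1 was the highest of the 6, so the probes of 1 gene went opposite ways on that array.

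Differences between the media for Sf1 were -0.05 on ILMN_2449335, 0.00 on ILMN_2894991, -0.12 on ILMN_1251244 and -0.29 on ILMN_2493851, with standard errors of 0.17 to 0.21. None passed (limma, adjusted p from 0.323 to 0.993). Only ILMN_2493851 had the same sign in all clones: clone 14 differed by -0.21, clone 6_1 by -0.25 and clone 6_2 by -0.41. Without clone 6_1 the 4 means came closer together, at -0.34, -0.21, -0.34 and -0.31 for the probes in the order just given, and none passed (limma, adjusted p from 0.207 to 0.406). Whether the probes read different isoforms of Sf1 was not tested.

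U2af2 encodes the large subunit of U2AF, which binds the polypyrimidine tract and contacts Sf1 at the 3′ splice site. Its probe ILMN_2496310 gave 8.85, 9.41 and 8.82 with doxycycline in clones 14, 6_1 and 6_2, against 8.79, 8.34 and 9.01 in control medium. The highest and the lowest of the 6 values both belonged to clone 6_1. The mean difference of 0.31 (95% interval -0.25 to 0.86) did not pass (limma, adjusted p = 0.468) and averaged differences of 0.05 from clone 14, 1.07 from clone 6_1 and -0.20 from clone 6_2. Without clone 6_1 it was -0.07. Of the other U2af2 probes, ILMN_2479300 had a detection p of 0.0118 to 0.0609 and ILMN_2509142 of 0.0972 to 0.505, and both were above background on no array. All 3 probes are annotated to the same RefSeq transcript, NM_133671.

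Sf3b1, a core protein of the U2 small nuclear ribonucleoprotein, was represented by ILMN_1235259, which was above background on no array. It gave 4.87, 5.29 and 5.85 with doxycycline, against 4.89, 5.14 and 4.77 in control medium. The doxycycline array of clone 6_2 had the lowest detection p, 0.0192, and the other 5 arrays lay at 0.0983 to 0.541. A difference between the media was not detectable at these signals. With this probe alone, a missing transcript and a probe that fails to read it cannot be told apart.

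Cdkn1b, the gene for p27, was measured by ILMN_2638428 at 7.69, 7.82 and 7.88 with doxycycline in clones 14, 6_1 and 6_2, against 7.66, 7.76 and 8.23 in control medium. The control array of clone 6_2 lay above the other 5, which spanned 7.66 to 7.88. The difference of -0.09 (95% interval -0.49 to 0.30) did not pass (limma, adjusted p = 0.775), and without clone 6_2 it was 0.04. Its other probes, ILMN_1228598 and ILMN_2923960, carry the same annotated transcript, NM_009875, and were above background on no array. The detection p of ILMN_1228598 was 0.897 to 0.999, at the bottom of the background distribution.

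**Figure D3:**
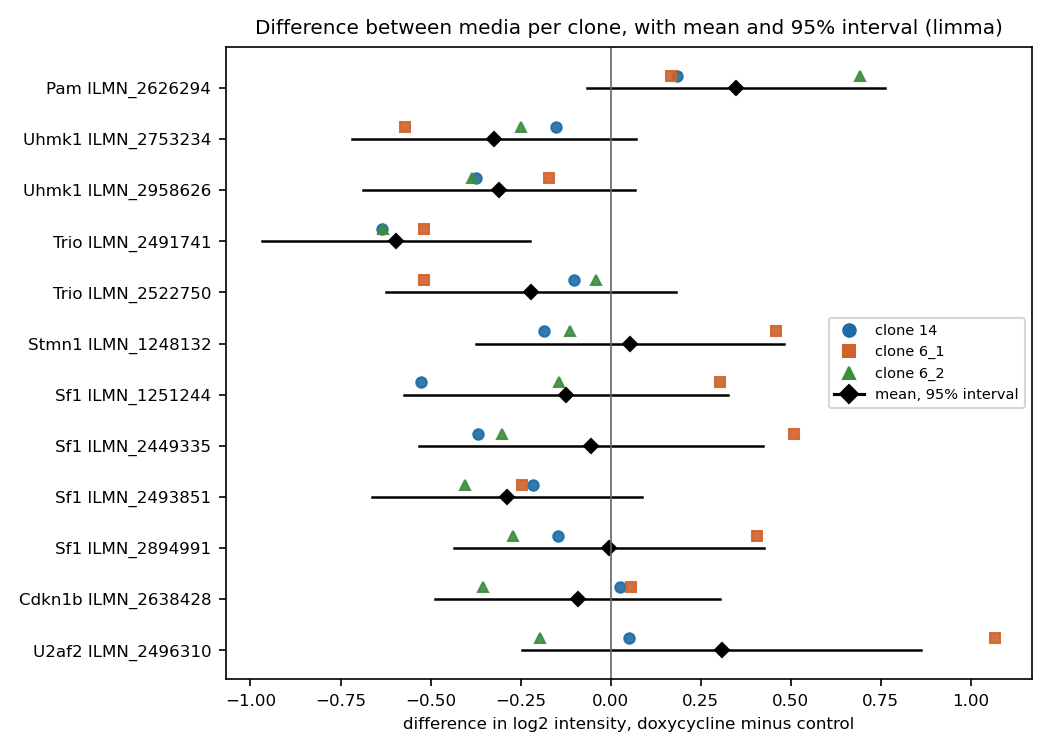
Difference in log2 intensity between doxycycline and control medium for the 12 tested probes, with coloured symbols for the clones and black diamonds with bars for limma's mean and 95% interval. The interval leaves out 0 for Trio ILMN_2491741 alone, whose adjusted p was 0.115. Clone 6_1 reaches 1.07 for U2af2.

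The clones were compared next, each by the mean of its 2 media. None of the 12 tested probes passed in any of the 3 comparisons (limma). Of all tested probes 0.136% passed between clone 6_1 and clone 14 (0.0532% higher and 0.0828% lower in clone 6_1), 0.142% between clone 6_2 and clone 14 (0.0532% higher and 0.0887% lower in clone 6_2), and 0% between clone 6_2 and clone 6_1. At an unadjusted p under 0.05 lay 2, 1 and 0 of the 12 probes, against 15.6%, 10.7% and 2.67% of all tested probes. With 1 culture per clone and medium these p-values measure only the spread between cultures.

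Trio had the lowest p of the 12 probes in both comparisons with clone 14. On ILMN_2491741 the mean was 8.90 in clone 6_1, 8.62 in clone 6_2 and 8.15 in clone 14. Clone 6_1 read 0.75 above clone 14 (SE 0.20; limma, adjusted p = 0.148), and clone 6_2 read 0.47 above clone 14 (SE 0.20; adjusted p = 0.448; 0.29 with median scaling). On ILMN_2522750 clone 14 was also the lowest in each medium, with means of 12.21 in clone 6_1, 11.99 in clone 6_2 and 11.84 in clone 14. Uhmk1 read 0.58 higher in clone 6_1 than in clone 14 on ILMN_2958626 (95% interval 0.12 to 1.05; limma, adjusted p = 0.234), but 0.24 with no background correction, at an unadjusted p of 0.134 (limma). On ILMN_2753234 the clones ran the other way, at 5.90 in clone 6_1, 6.02 in clone 6_2 and 6.24 in clone 14, so the Uhmk1 probes gave no common order. Pam had means of 8.46 in clone 6_1, 8.52 in clone 6_2 and 8.54 in clone 14. The 95% interval of the difference from clone 14 was -0.59 to 0.42 for clone 6_1 and -0.53 to 0.48 for clone 6_2. The mean of clone 6_2 joins the highest doxycycline value, 8.86, and the lowest control value, 8.17.

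Genes with the most similar profile to Pam and Uhmk1 were sought by the root mean square difference over the 6 arrays after each probe's mean was subtracted. For Pam the 5 nearest were Mars2, Syt11, Arid5a, Ube2e3 and Atp6v1g2, at distances of 0.02 to 0.06, where Pam itself had an SD of 0.24. For Uhmk1 ILMN_2958626 they were Gorasp1, Rtn1, Rtel1, Map1b and Sptbn1, at 0.06 to 0.08, where Uhmk1 had an SD of 0.32. With 6 arrays such matches are a description only.

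Genes listed by name as relatives or partners of these 10 were described through 7 lists. Each gene stood for itself through its brightest tested probe. Like the members, the lists were chosen with earlier results of these data known. No tested probe of any list passed (limma, adjusted over all probes; 0.314% of all probes passed). Without clone 14 up to 4 probes of a list passed, those of the splicing list, and without clone 6_2 up to 1, in fits that called 717 and 400 of all probes. Over all 9196 genes tested, 50% were higher with doxycycline, the median difference was 0.00, and 21.6% had an unadjusted p under 0.05.

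Precursors of amidated peptides are the substrates of PAM. Of 40 listed, 35 had a probe and 9 were tested, of which 7 were higher with doxycycline and 2 lower, with a median of 0.10. The list was made by name, and whether each peptide is amidated in mouse was not checked. Ghrh counted as higher at a difference of 0.000632. Clone 14 had a median of 0.09, clone 6_1 of 0.23 and clone 6_2 of -0.17, and without clone 6_1 the median difference was -0.02. Cck, the precursor of cholecystokinin, averaged 8.32 ± 0.66 with doxycycline and 6.91 ± 1.42 in control medium (SD, n = 3 arrays each). The difference of 1.41 (SE 0.34) did not pass (limma, adjusted p = 0.0964). Clone 14 was at 0.51, clone 6_1 at 2.64 and clone 6_2 at 1.09, and without clone 6_1 the mean was 0.80. Cck was above background on 3 doxycycline arrays and 2 control arrays, and the value of 5.69 on the control array of clone 6_1 is a background reading, so the size in that clone and of the mean is not measured. Sct, the precursor of secretin, read 0.66 (SE 0.22; 0.42 without clone 6_1), Chga, the granin that yields pancreastatin, -0.26 (SE 0.17), and Oxt, the oxytocin precursor, -0.24 (SE 0.18). Oxt was above background on 1 doxycycline array and 2 control arrays.

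The list drawn up around kalirin, Trio and their GTPase pathway held 21 tested genes, of which 4 were higher with doxycycline and 17 lower. Their median was -0.26. The tie of each gene to kalirin or Trio, Nos1 among them, was not checked. All 3 clones were lower in 9 of the 21, against 24.4% of all tested genes. All 3 were higher in 0 of the 21, against 24.9% of all. Neither count was particular to this list. In the stathmin and microtubule list 10 of 21 were lower in all 3 clones, and in the RNA granule list 0 of 9 were higher in all 3. The smallest p belonged to Ptprf, a receptor phosphatase of the LAR family, at -0.65 (SE 0.17), Nckap1, a subunit of the WAVE complex that acts below Rac, at -0.68 (SE 0.22), the scaffold gene Iqgap1 at -0.57 (SE 0.21) and Nos1, neuronal nitric oxide synthase, at -0.55 (SE 0.22). Their adjusted p ran from 0.109 to 0.194 (limma). Without clone 6_1 Nckap1 was at -0.35 and Iqgap1 at -0.31, and Nos1 read 0.06 in clone 14 and was at -0.34 without clone 6_2 and -0.86 without clone 14. Taken clone by clone, clone 14 had a median of -0.09, clone 6_1 of -0.43 and clone 6_2 of -0.20.

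Among the Rassf family and the recycling endosome genes around Rab11, 11 genes were tested, 5 higher and 6 lower with doxycycline, with a median of -0.10. All 3 clones were lower in 4 of the 11 and higher in 1, against 24.4% and 24.9% of all tested genes. Rab11a, a GTPase of the recycling endosome, read -0.61 (SE 0.17) and Sav1, a scaffold of the Hippo kinases, -0.61 (SE 0.17), both with an adjusted p over 0.05 (0.114 and 0.118, limma). Rassf4 read -0.50 (SE 0.21) and the Rab11 effector gene Rab11fip2 -0.40 (SE 0.20). Without clone 6_1 these came to -0.22 for Rassf4 and -0.16 for Rab11fip2.

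The splicing list, of factors that recognise the branch point and the 3′ splice site, held 18 tested genes, 9 higher and 9 lower with doxycycline, with a median of 0.01. Of these 6, or 33.3%, had an unadjusted p under 0.05 (limma), against 21.6% of all tested genes. In the other lists this share ran from 0% for the RNA granule list to 27.3% for the Rassf list. It was 9.09% for the p27 list, or 2 of 22 genes. Among the 6 splicing genes Dhx15 read lower with doxycycline, at -0.44, and the others read higher. U2af1, the small U2AF subunit and partner of U2af2, averaged 9.01 ± 0.28 with doxycycline and 8.24 ± 0.25 in control medium (SD, n = 3 arrays each). It read higher with doxycycline in all 3 clones, by 0.78 on average (SE 0.19). Its paralogue U2af1l4 read 0.76 (SE 0.19), Rbm39, which carries a U2AF homology motif as Uhmk1 does, 0.81 (SE 0.20), and Phf5a, a small subunit of the SF3b complex, 0.60 (SE 0.17). None passed (limma, adjusted p from 0.0994 to 0.119). Whether the probes of the paralogues U2af1 and U2af1l4 share transcripts was not tested, so their values may not be separate.

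Of 21 tested genes for stathmins, tubulins and microtubule regulators, 6 were higher with doxycycline and 15 lower, with a median of -0.15. Tubulin genes went both ways, with Tubb2b at 0.57 (SE 0.17) and Tuba4a at 0.50 (SE 0.17) beside Tuba1a at -0.57 (SE 0.17). Stmn3, a relative of stathmin, read 0.49 (SE 0.18; 0.31 without clone 6_1). The adjusted p of these 4 ran from 0.127 to 0.175 (limma), and tubulin genes are close enough in sequence that probes may share transcripts.

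Around p27, 22 genes for inhibitors, G1 cyclins, their kinases and the ubiquitin ligase of p27 were tested, 13 higher and 9 lower with doxycycline, with a median of 0.07. The locus Cdkn2a, which encodes p16 and p19Arf, read 0.52 (SE 0.16) and cyclin E2 (Ccne2) -0.59 (SE 0.24), with clone 14 at 0.13, clone 6_1 at -1.17 and clone 6_2 at -0.75. The ubiquitin ligase genes Cul1 and Rbx1 read -0.40 (SE 0.18) and 0.35 (SE 0.18). Their adjusted p ran from 0.136 to 0.265 (limma).

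The list drawn up around Uhmk1 and RNA granules held 9 tested genes, 4 higher with doxycycline and 5 lower, with a median of -0.12. Of these 0 had an unadjusted p under 0.05 (limma). Fxr2, of the fragile X protein family, read 0.36 (SE 0.21), the RNA transport gene Stau2 -0.27 (SE 0.16), Nono -0.31 (SE 0.20) and Actb 0.23 (SE 0.18). Clones differed in sign for Fxr2, at 0.32, -0.12 and 0.89 in clones 14, 6_1 and 6_2, and for Nono, at -0.48, -0.66 and 0.20. The median was 0.06 with every tested probe taken by itself and -0.00 without clone 14.

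**Figure D4:**
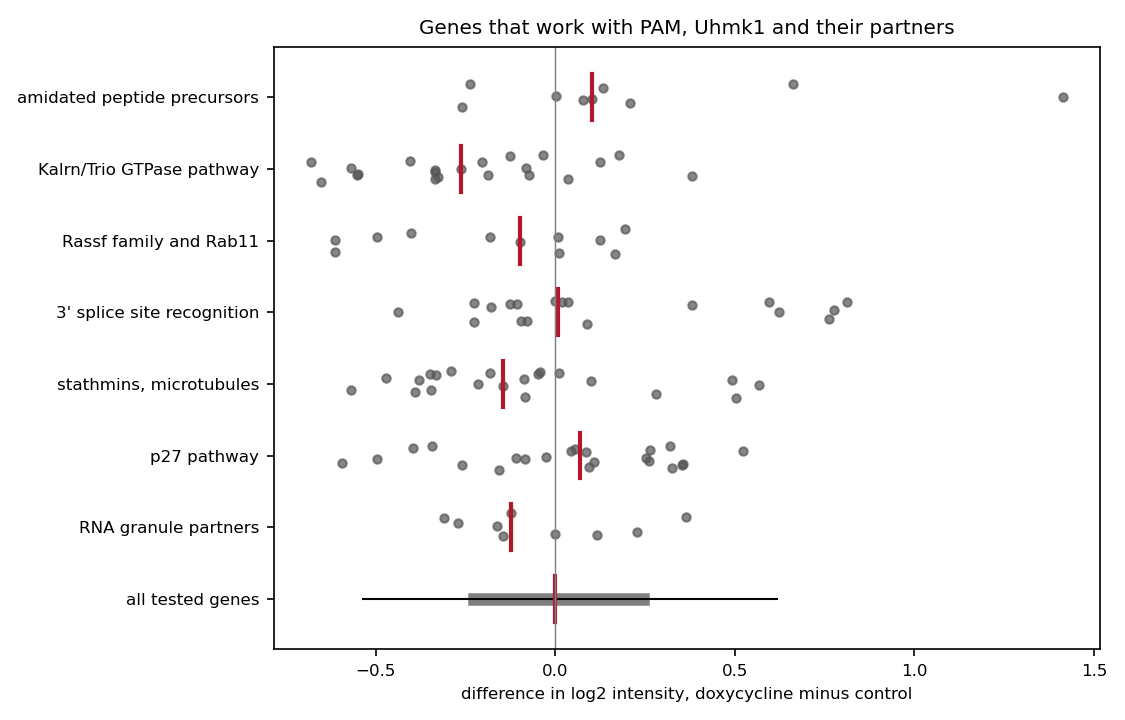
Difference in log2 intensity between doxycycline and control medium for each tested gene of the 7 lists (points), with each list's median as a red line. The lowest line shows all 9196 tested genes by median, quartiles (thick bar) and 5th to 95th percentile (thin line). List medians run from -0.26 for the Kalrn and Trio pathway to 0.10 for the amidated peptide precursors.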

How the data were processed

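Total RNA was labelled with biotin and hybridised to bead arrays, per the labels' protocols. The authors deposited an unnormalised intensity for each probe on each array, with its detection p-value in the next column. The submitters' processing notes list GenomeStudio and BeadStudio. A second deposited table gives processed intensities, which kept the rank order of the scanner signals at array medians of 134.1 to 134.2; the sources used here do not say how they were normalised. There were 0 columns of other samples.

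Signals were normalised by limma 3.58.1 in R 4.3.3 with neqc, which takes background from the detection p-values, adds an offset of 16, quantile-normalises and takes log2. The offset shrinks differences of dim probes. Of 45281 probes 16902 with a detection p under 0.01 on at least 3 of 6 arrays were kept. Linear models from lmFit, moderated by eBayes, took medium as the factor and clone as a block (2 residual and 6.95 prior degrees of freedom), with two-sided tests at an adjusted p of 0.05. Clone is the block because the labels place each clone in both media. Deviations from group means correlated within clones at 0.538, -0.0211 and 0.139 for 14, 6_1 and 6_2. The fit was tested on simulated data.

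Symbols came from the platform annotation: 34885 probes had 1, 18 several and 10378 none. All 26 member probes matched the GRCm38.p6 annotation by Entrez number. The members, lists and tests were chosen with earlier results of these data known. Named from each list were the 4 genes of smallest p, since none had a called probe. Alternatives changed the block, the clones, the filter, the background, the scaling, the moderation and, for the lists, the probe of a gene.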

Additional observations from a re-analysis of the deposited data

Results flagged for a closer look

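On 6 of the 12 tested probes 1 clone moved opposite to the others. Each clone had 1 array per medium, so the difference between clones was not tested. Over all tested probes 51.4% had clones of both signs. Clone 6_1 read higher with doxycycline, at 0.46 for Stmn1 and at 0.30, 0.51 and 0.41 for Sf1 probes ILMN_1251244, ILMN_2449335 and ILMN_2894991, where clones 14 and 6_2 read lower. Clone 6_1 moved opposite to both other clones, in either direction, on 4 of the 12 probes and on 18.7% of all tested probes. Its control array held the lowest of the 6 values on each of these 4 probes. Clone 6_2 read lower, at -0.36 for Cdkn1b and at -0.20 for U2af2, where clones 14 and 6_1 read higher, by 0.03 and 0.06 for Cdkn1b and by 0.05 and 1.07 for U2af2.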

How the results depend on the processing

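No member probe passed in the comparison of media under 13 alternatives, or between clones under the 9 that were run for it (the block and the left-out clones were not), including the 15 probes tested at a detection p under 0.05 and all 26 with no filter. Of 180 values of single member probes under an alternative 171 kept their sign and 9 reversed. Many of these signs were fixed in advance, because changes of the block, the filter or the moderation cannot alter a probe's difference. Sf1 ILMN_2894991 reversed to 0.000634 with the authors' values. With a clone left out, values of both signs came for Cdkn1b (-0.17 to 0.041), Sf1 ILMN_2449335 (-0.34 to 0.10), Sf1 ILMN_2894991 (-0.21 to 0.13), Sf1 ILMN_1251244 (-0.34 to 0.079), Stmn1 (-0.15 to 0.17) and U2af2 (-0.071 to 0.56). At an unadjusted p under 0.05 lay 4 of the 12 without clone 6_1 (22.7% of all tested probes), 1 without clone 14 (19.1%) and 0 without clone 6_2 (16.1%). Probes called over the whole table numbered 33 with no replicate block (all 33 among the 53), 1 with no filter, 165 with median scaling, 144 with an intensity trend and 0 with an unmoderated paired statistic, with 1875 at an unadjusted p under 0.05. With a clone left out they numbered 717 without clone 14, 78 without clone 6_1 and 400 without clone 6_2; in the first and the last limma gave every probe one common variance. In those fits up to 2 probes of the amidated precursors, 1 of the Kalrn and Trio pathway, 1 of the Rassf list, 4 of the splicing list and 2 of the p27 list passed, against 0 at the least. Of 98 list medians under an alternative 6 moved by more than the SD of that list's own 3 clone medians, 4 of them of the Rassf list and 2 of the RNA granule list. Clone medians lay closer together for the Rassf list (-0.15, -0.08 and -0.17) than for the amidated precursors (0.09, 0.23 and -0.17). The counts therefore do not rank the lists. Changes of the block or the moderation could not move a median. Of the 28 genes named from the lists 12 moved by over 1.5 times without clone 6_1, 4 without clone 14 and 5 without clone 6_2. Near 0, the median of the splicing list also changed sign, to -0.02 with median scaling, -0.04 with every probe by itself and -0.04 without clone 6_1, and that of the Rassf list to 0.01 with no filter. The causes were not tested. Signals near background limit Uhmk1, and 3 arrays per medium limit every value.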
